A study of Mus musculus with 6 samples.

Results

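The genes described here are 10 genes of the contractile apparatus of smooth muscle and myoepithelial cells: Acta2, Actg2, Myh11, Tagln, Cnn1, Mylk, Oxtr, Des, Myocd and Lmod1. They are 10 of the 23358 entries of the gene count table, taken by their gene symbols, and they were selected by measured values, with the high levels of several of them in 1 tumor already known. RNA-Seq was performed on 6 spontaneous tumors of female mice, 1 tumor from each. All tumors carried NT3, a conditional allele of NF-κB-inducing kinase (NIK) at the ROSA26 locus that lacks the domain bound by TRAF3 and is silent until Cre removes a stop cassette. In 3 mice Cre was driven by Osterix (Osx-Cre;NT3, tumors 13, 18 and 25, all of the trunk, latency of 150, 168 and 115 days), from a parental line of mixed C57Bl/6J and CD1 background, and the mice were kept on doxycycline until weaning because this driver is of the Tet-off type. In the other 3, Cre was driven by FSP1 (FSP1-Cre;NT3), from a parental line on FVB/n, with tumors 27 and 36 of the perineal region (101 and 52 days) and tumor 29 of the trunk (72 days). The NT3 parents of both crosses were C57Bl/6J. FSP1-Cre is active mainly in fibroblasts but also in myeloid cells, both drivers act in whole animals, and no benign tissue or Cre-negative control was analysed here. The lines thus also differed in strain background and doxycycline history, which cannot be told apart from the driver. Both perineal tumors came from the same line, so site and line overlap in part, and tumor 29 is the only FSP1-Cre;NT3 tumor at the site of the Osx-Cre;NT3 tumors.

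Smooth muscle and myoepithelial cells contract when calcium and calmodulin switch on myosin light chain kinase (Mylk), which phosphorylates the myosin that pulls on smooth muscle actin (Acta2, Actg2). Transgelin (Tagln), calponin (Cnn1) and leiomodin (Lmod1) bind the actin filaments, and desmin (Des) forms the intermediate filaments of muscle. Myocardin (Myocd) switches these genes on together with serum response factor (SRF), which binds the CArG box of their promoters, and the oxytocin receptor (Oxtr) triggers contraction in the uterus and in the myoepithelium of the lactating mammary gland. Smooth muscle actin is also made by pericytes and by activated fibroblasts, so it does not identify a cell type by itself.

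Total counts per tumor lay between 51824408 and 163297772, and every deposited count was an even number, so the counts printed here may exceed the number of fragments. Levels are given as CPM, counts brought to the same library total in every tumor and scaled by TMM, a correction for library composition; between genes, levels are compared only on the deposited RPKM, which corrects for gene length. Of the 16415 genes that passed the filter on low counts, 24.8% were highest in tumor 36, 22.8% in tumor 18 and 21.9% in tumor 25, and between 7.64% and 11.9% in each of the other 3 tumors. Long genes were read relatively less in tumors 13 and 18 than in the others, and the study's mean RNA integrity number was lower for the Osx-Cre;NT3 group.

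The promoters are shown because most members were highest in the same tumor, on which they were chosen, and SRF is a known regulator of genes of this kind. In RefSeq (GRCm38.p6), 6 of the 10 members had a promoter window, here the 250 bases before the annotated start: Acta2, Cnn1, Mylk, Oxtr, Des and Lmod1. Each of them had 1 window, so any other start inside a gene, as in the long span of Mylk, was not searched. The windows of Acta2, Mylk and Lmod1 are printed 5′ to 3′ along the gene, with the matches to 2 motifs in capitals.
Acta2: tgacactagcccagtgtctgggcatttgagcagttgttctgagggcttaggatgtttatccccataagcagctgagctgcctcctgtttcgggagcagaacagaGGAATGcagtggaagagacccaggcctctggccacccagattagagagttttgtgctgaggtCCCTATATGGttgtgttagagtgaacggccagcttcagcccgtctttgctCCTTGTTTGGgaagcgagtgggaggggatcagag
Mylk: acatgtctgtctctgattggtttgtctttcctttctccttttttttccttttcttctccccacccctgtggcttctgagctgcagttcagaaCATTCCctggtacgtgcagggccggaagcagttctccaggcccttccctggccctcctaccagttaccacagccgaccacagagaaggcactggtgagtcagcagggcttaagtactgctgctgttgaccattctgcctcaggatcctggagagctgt
Lmod1: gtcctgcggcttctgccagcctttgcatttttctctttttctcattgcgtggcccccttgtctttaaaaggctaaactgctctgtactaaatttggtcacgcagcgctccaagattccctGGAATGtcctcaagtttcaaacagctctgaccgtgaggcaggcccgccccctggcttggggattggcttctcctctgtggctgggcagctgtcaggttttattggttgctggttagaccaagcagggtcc
The Acta2 window (chr19:34255374-34255623, minus strand) held 2 CArG boxes with 1 other base in the A/T core, CCCTATATGG at chr19:34255448-34255457 and CCTTGTTTGG at chr19:34255398-34255407, which lie 75 and 25 bases before the RefSeq start. The exact CArG box, searched on both strands, was in none of the 6 member windows and in 1.47% of the 32851 windows of all genes. With 1 other base allowed in the core, 7.24% of all windows held a match and 0.548% held 2 or more, and among the members only Acta2 did. The remaining capitals mark the MCAT motif (CATTCC, on the other strand GGAATG), bound by TEAD factors, which was in 12.6% of all windows and in those of Acta2, Mylk (chr16:34784700-34784949, plus strand) and Lmod1 (chr1:135324563-135324812, plus strand). The κB motif, to which NF-κB binds, was in 7.25% of all windows and, among the members, in Des. No match overlapped another, and a match is a description of the letters in the window only.

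Tumor 36 had the highest level of 9 of the 10 members, where 24.8% of all genes tested were highest in this tumor. In 7 of the 10, tumor 36 was at least 4-fold above the next tumor, where 3.68% of all genes were. The exception was Oxtr, which was highest in tumor 27. The median difference between tumor 36 and the mean of the other 5 was 3.30 on the log2 CPM scale over the members and −0.02 over all genes. The summed level of the 10 members was 2994 CPM in tumor 36, against 265 to 571 CPM in the 3 Osx-Cre;NT3 tumors and 327 to 376 CPM in tumors 27 and 29. The members were chosen on this contrast, so these values are a description with no test. In bulk tumor RNA, more cells of a contractile type and more RNA of these genes per cell cannot be told apart.

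**Figure D1:**
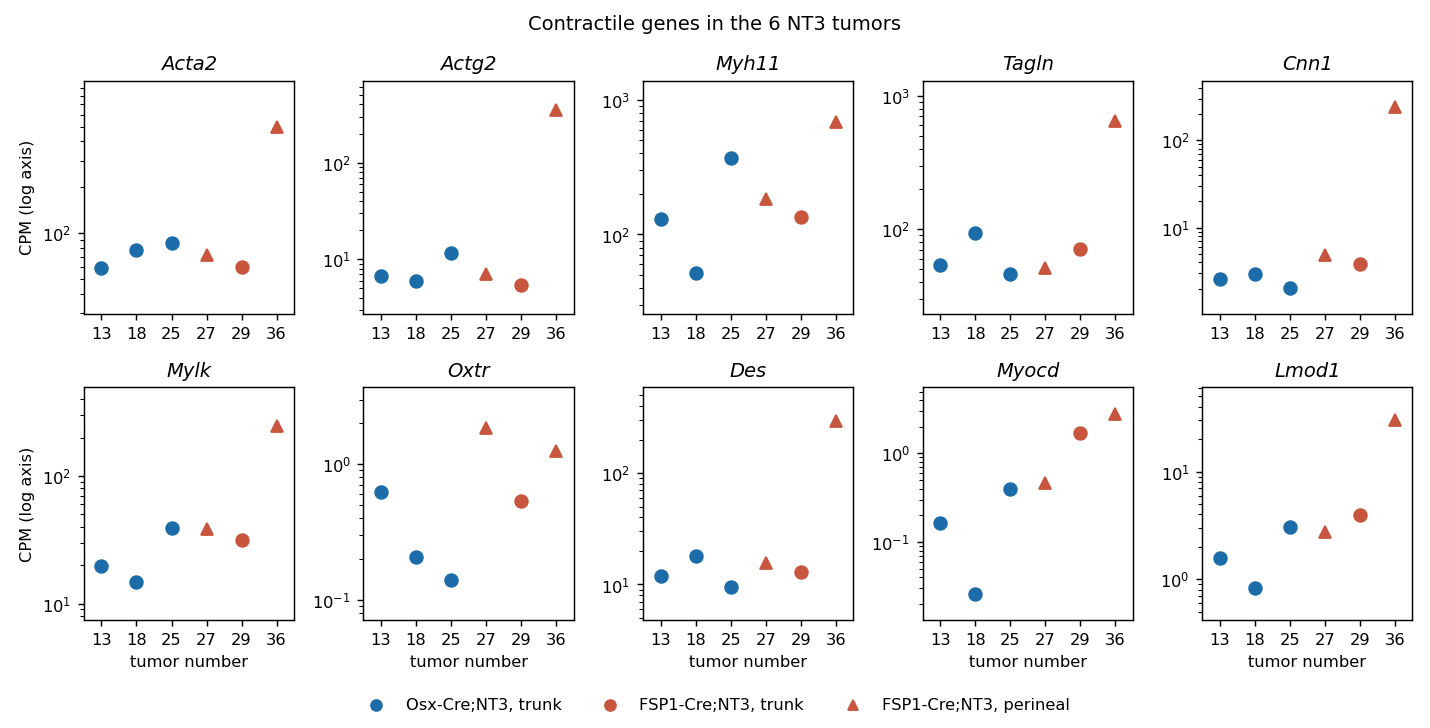
Level of each contractile gene in each of the 6 tumors, as CPM on a log axis; 1 point is 1 tumor, blue marks Osx-Cre;NT3 and red FSP1-Cre;NT3, and triangles mark perineal tumors. Tumor 36 lies above the other 5 in every panel except that of Oxtr, where tumor 27 is highest, and the gap to the next tumor is narrow for Myh11 and Myocd.

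Acta2 encodes the actin of vascular smooth muscle and lies on chromosome 19 (34241091 to 34255336, mm10). Its level was 59.2, 77.9 and 86.3 CPM in tumors 13, 18 and 25, and 71.6, 60.3 and 498 CPM in tumors 27, 29 and 36. The 5 lower tumors spanned less than the gap of 5.77-fold that separated tumor 36 from tumor 25. Actg2, the actin of gut and other visceral smooth muscle (chromosome 6, 83512909 to 83536251), was at 6.75, 5.96 and 11.5 CPM in Osx-Cre;NT3 tumors and 7.03, 5.44 and 349 CPM in tumors 27, 29 and 36. Tumor 36 was 30.4-fold above the next tumor for Actg2, and the lines overlapped in both actins. On RPKM, the ratio of Actg2 to Acta2 was 0.950 in tumor 36 and 0.104 to 0.180 in the other 5. Among the RPKM of the 6 actin genes, Acta2 and Actg2 made up 24.6% in tumor 36 and 1.92% to 2.90% elsewhere, while the cytoplasmic actins Actb and Actg1 made up 74.2% and 96.5% to 97.8%. Actb itself, the β-actin of all cells, was at 1149 CPM in tumor 36, within the 1051 to 1478 CPM of the other tumors. The actin genes are close copies in their coding parts, and how reads shared between them were counted is not given in the sources used here, so the split between them is uncertain.

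Myh11 encodes the myosin heavy chain of smooth muscle (chromosome 16, 14194527 to 14291408). It was at 131, 51.4 and 373 CPM in tumors 13, 18 and 25, and at 183, 136 and 689 CPM in tumors 27, 29 and 36. Tumor 25 came close behind tumor 36, with 1.85-fold between them, and the other 5 tumors spread over 7.78-fold on RPKM. Per length, on RPKM, Myh11 was the highest member in tumor 25, Acta2 in tumor 27 and Tagln in the other 4 tumors. Of the RPKM of the conventional myosins Myh9, Myh10 and Myh11, Myh11 held 51.9% in tumor 36 and 12.4% to 22.6% in the rest, with the same doubt about reads shared between similar genes. Mylk, the kinase of the myosin light chain (chromosome 16, 34784950 to 35002434), was at 19.6, 14.7 and 39.2 CPM in Osx-Cre;NT3 and 38.5, 31.7 and 248 CPM in FSP1-Cre;NT3 tumors. Tumor 36 was 6.33-fold above tumor 25, and the lines overlapped. A pair of other entries lie inside the Mylk span, both under 2 RPKM in all tumors.

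**Figure D2:**
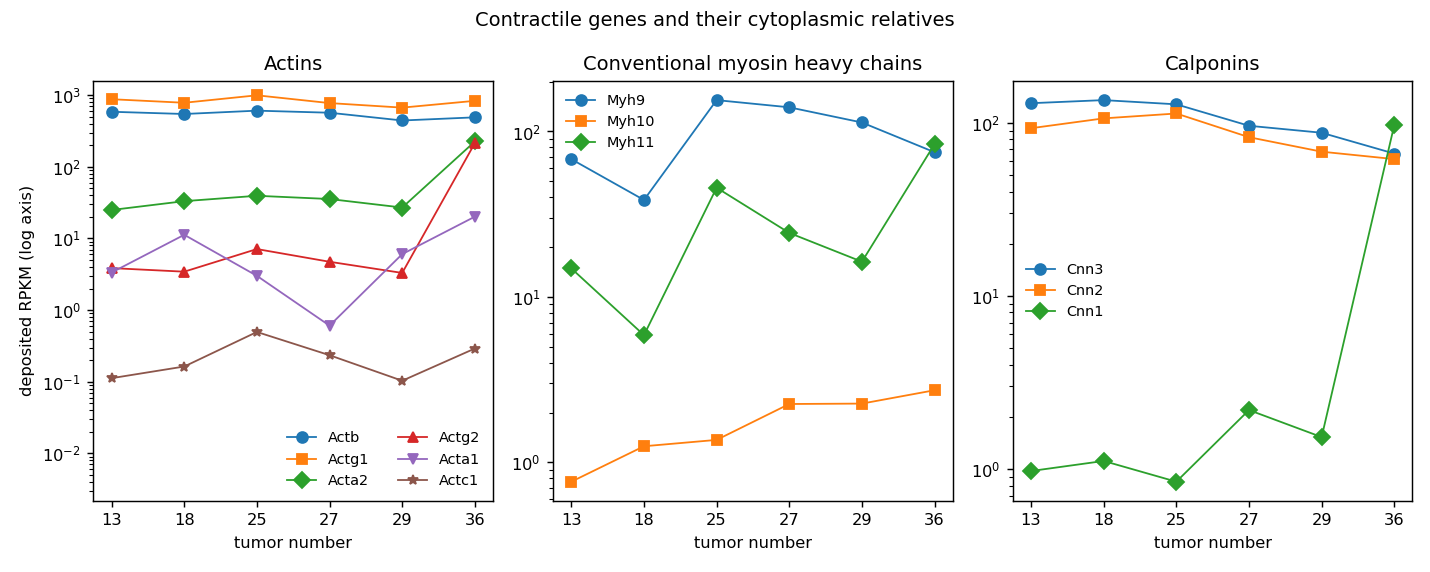
Deposited RPKM (log axis) of the actins, the conventional myosin heavy chains and the calponins in the 6 tumors; each point is 1 tumor and lines only join the points of a gene. Acta2, Actg2, Myh11 and Cnn1 are higher in tumor 36 than in any other tumor, whereas Actb, Actg1, Myh9, Cnn2 and Cnn3 are not highest there.

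Tagln, an actin-binding protein and an early marker of smooth muscle (chromosome 9, 45929628 to 45936058), was at 53.6, 93.2 and 46.4 CPM in Osx-Cre;NT3 and at 51.1, 70.9 and 644 CPM in FSP1-Cre;NT3 tumors. Its entry overlaps that of Pcsk7 by 95 bases, and Pcsk7 was at 6.59 to 12.2 RPKM against 23.8 to 328 RPKM for Tagln. Cnn1, the calponin of differentiated smooth muscle (chromosome 9, 22099253 to 22109221), had the widest gap of all members. It was at 2.57, 2.91 and 2.06 CPM in the Osx-Cre;NT3 tumors, at 4.91 and 3.80 CPM in tumors 27 and 29, and at 239 CPM in tumor 36, which was 48.6-fold above tumor 27. Cnn1 made up 43.1% of the RPKM of the 3 calponins in tumor 36 and 0.348% to 1.21% in the others, while Cnn2 and Cnn3, the calponins of other cells, were both lowest in tumor 36 (61.6 and 66.3 RPKM). Lmod1, which starts actin filaments in smooth muscle (chromosome 1, 135324813 to 135368065), was at 1.57, 0.831 and 3.07 CPM in Osx-Cre;NT3 and at 2.76, 3.95 and 30.2 CPM in FSP1-Cre;NT3 tumors. Tumor 36 stood 7.65-fold above tumor 29 for Lmod1, and 6.90-fold above tumor 18 for Tagln, and in both genes the other tumors of the lines overlapped.

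Des encodes desmin, the intermediate filament of smooth, skeletal and cardiac muscle (chromosome 1, 75360344 to 75367715). It was at 12.0, 17.9 and 9.52 CPM in tumors 13, 18 and 25, at 15.4 and 13.0 CPM in tumors 27 and 29, and at 293 CPM in tumor 36. The difference of tumor 36 from the mean of the others was 4.46 on the log2 scale, after Cnn1 (6.25) and Actg2 (5.62). Since desmin is shared by all muscle, its level was set beside the skeletal muscle list: 5 of the 12 skeletal genes that passed the filter were highest in tumor 36 and none was 4-fold above the next tumor. The median difference of these 12 genes from the other tumors was 1.48 on the log2 scale, with 8 of 12 above the mean of the others; Acta1, skeletal actin, was at 35.8 CPM in tumor 36 against 0.982 to 21.3 CPM, and Ckm, muscle creatine kinase, at 21.4 against 0.645 to 7.53 CPM. Ttn (51.7 against 54.0 to 210.5 CPM) and Myh1 (8.41 against 15.1 to 84.2 CPM), which had the highest mean CPM of the list, were both lowest in tumor 36. The summed level of the list was 177 CPM in tumor 36, 111 to 242 CPM in Osx-Cre;NT3 tumors, and 150 to 334 CPM in tumors 27 and 29. This sum joins genes that were highest in tumor 36, such as Acta1 and Ckm, with genes that were lowest there. Myod1, the master regulator of skeletal muscle, had no count in tumor 36 and at most 0.0563 CPM elsewhere. The cardiac markers summed to 20.4 CPM in tumor 36, inside the 4.39 to 28.9 CPM of the other tumors. The part of skeletal muscle in the level of Des was not tested.

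The receptor and the coactivator were the lowest members per length in every tumor. Oxtr (chromosome 6, 112473684 to 112489808) was at 0.621, 0.208 and 0.141 CPM in the Osx-Cre;NT3 tumors and at 1.84, 0.539 and 1.25 CPM in tumors 27, 29 and 36. These values rest on 30, 32, 10, 120, 42 and 80 counts, and the perineal tumors 27 and 36 were the highest pair. Oxt, the gene of its ligand oxytocin, had no count in 5 tumors and 0.0828 CPM in tumor 13. Myocd (chromosome 11, 65176571 to 65269989) was at 0.166, 0.0260 and 0.394 CPM in Osx-Cre;NT3 and at 0.460, 1.69 and 2.78 CPM in FSP1-Cre;NT3 tumors, from 8, 4, 28, 30, 132 and 178 counts. For Myocd, tumor 29 of the trunk came 1.64-fold below tumor 36, so its order over tumors was not that of Cnn1 or Actg2.

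Per length, the mean RPKM of the 5 tumors other than 36 placed Acta2 (32.0 ± 5.98, SD, n = 5) and Tagln (31.6 ± 8.56) first, which did not differ beyond their spread. Myh11 followed (21.4 ± 15.1), with a spread that covered both of these means. Des (5.06 ± 1.24) and Actg2 (4.48 ± 1.57) came next and also lay within each other's spread, above Mylk (3.00 ± 1.30) and Cnn1 (1.33 ± 0.544). The spreads of Actg2 and Mylk overlapped. Lmod1 (0.502 ± 0.263), Oxtr (0.122 ± 0.135) and Myocd (0.0869 ± 0.103) were lowest. In tumor 36 the order became Tagln (328 RPKM), Acta2 (226), Actg2 (214), Des (110), Cnn1 (96.9), Myh11 (83.9), Mylk (25.6), Lmod1 (6.19), Myocd (0.439) and Oxtr (0.221). Actg2 and Cnn1 therefore stood above Myh11 in tumor 36 and below it in each of the other 5, and Des did so apart from tumor 18, where Des (6.31 RPKM) was also above Myh11 (5.87 RPKM).

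Among those 5 tumors the members did not move as 1 block. Acta2 varied least (SD of log2 CPM 0.24) and Des and Tagln little more (0.35 and 0.41), whereas Myh11 (1.03), Oxtr (1.37) and Myocd (1.87) varied most. The order was also set beside gene length. Over all genes tested, the median log2 CPM of genes under 1000 bases was 0.46 and 0.61 above the mean of the 6 tumors in tumors 13 and 18, and that of genes of 7000 bases or more was 0.39 and 0.63 below it, while tumors 25 and 27 ran the other way. Tumor 36 stayed between −0.18 and 0.14 in all 6 length classes. Of the 5 members of at least 3000 bases (Myh11, Mylk, Oxtr, Myocd and Lmod1), 4 were lowest in tumor 18 among these 5 tumors, and of the 5 shorter members 0 were. After the median of each gene's length class was subtracted, the same 4 long members were still lowest in tumor 18, now with Actg2. In this way the SD rose for Acta2 (0.24 to 0.38), Actg2 (0.42 to 0.59) and Cnn1 (0.49 to 0.57). It fell for the other members, most for Mylk (0.63 to 0.19). Whether RNA integrity had a part in this was not tested.

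**Figure D3:**
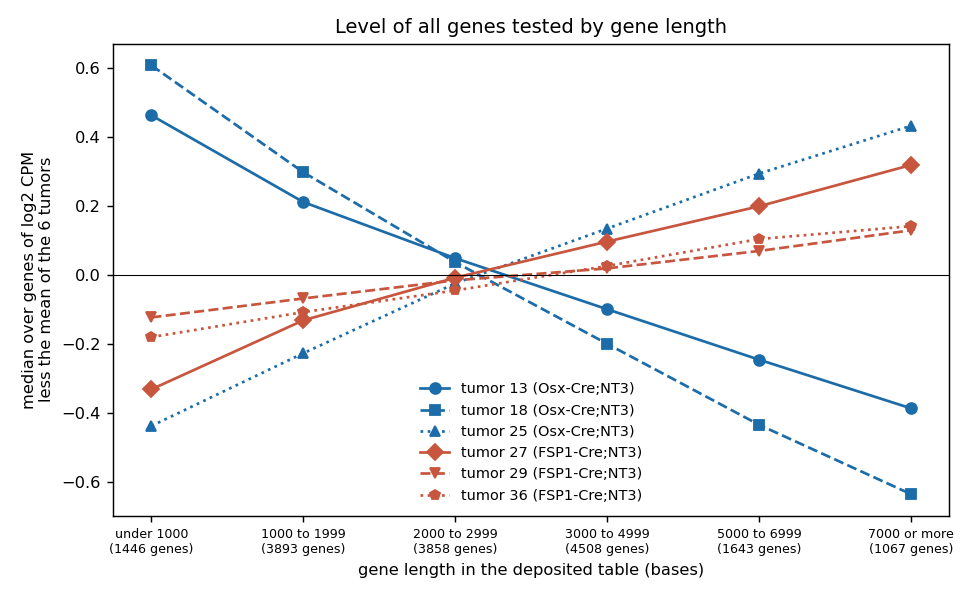
Median log2 CPM, less the mean of the 6 tumors, of all genes tested in 6 classes of gene length (bases, as listed in the deposited table), with 1 line for each tumor; blue marks Osx-Cre;NT3 and red FSP1-Cre;NT3. Tumors 13 and 18 fall from short to long genes, tumors 25 and 27 rise, and tumor 36 stays near 0.

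The first comparison asked whether the contractile genes differed between the lines. All 10 members had a higher fitted level in FSP1-Cre;NT3 than in Osx-Cre;NT3 tumors. The median of their log2 fold changes was 2.44 (0.01 over all genes), and they ran from 5.03 ± 1.68 (SE, n = 3 and 3) for Cnn1 to 0.86 ± 0.86 for Myh11. None of them passed an adjusted p of 0.05 (0.458 to 0.680, edgeR quasi-likelihood test with Benjamini-Hochberg adjustment), and neither did any of the 16415 genes tested (0%). Without adjustment, 7 members had a p under 0.05, beside 10.8% of all genes. DESeq2 called 2.51% of the genes, and 0 members. Only Cnn1 and Myocd had 3 FSP1-Cre;NT3 values above all 3 Osx-Cre;NT3 values, which 9.03% of all genes had. The fit holds tumor 36, on which the members were chosen, so these values describe that tumor as much as its line.

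The tumors without 36 were not singled out by that choice. Between tumors 27 and 29 and the 3 Osx-Cre;NT3 tumors, 6 members had a positive log2 fold change and 4 a negative one, with a median of 0.32 (−0.02 over all genes). Myocd (2.49 ± 1.12, SE, n = 2 and 3), Oxtr (1.90 ± 0.86), Lmod1 (0.88 ± 0.60), Cnn1 (0.79 ± 0.35), Mylk (0.52 ± 0.43) and Des (0.11 ± 0.33) were on the positive side. Tagln (−0.08 ± 0.36), Acta2 (−0.18 ± 0.24), Myh11 (−0.22 ± 0.77) and Actg2 (−0.37 ± 0.39) were on the negative side. The lowest adjusted p of a member was 0.680 by edgeR, for Cnn1, Oxtr and Myocd alike, 0 members had an unadjusted p under 0.05, and 0 of 16641 genes (0%) were called; 6.25% had an unadjusted p under 0.05. DESeq2 called 1.13% of the genes and again no member. Both values of Cnn1 and of Myocd in tumors 27 and 29 lay above all 3 of Osx-Cre;NT3, as they did for 13.5% of all genes. The values of Myocd and Oxtr rest on few counts and carry the widest errors. Fibroblast markers, which can accompany smooth muscle actin, summed to 13227 CPM in tumor 27 and 16290 CPM in tumor 29, and to 6431 to 9838 CPM in the Osx-Cre;NT3 tumors. Col1a1, Col1a2 and Col3a1 were the largest parts of the sums in tumors 27 and 29. Of the 10 markers, 7 had a positive log2 fold change in this fit and 3 a negative one. Postn was at 1033 and 843 CPM in tumors 27 and 29, against 773 to 2825 CPM in the Osx-Cre;NT3 tumors. The part of fibroblasts in the values of the members was not tested.

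The second comparison was that of site. All 10 members had a higher fitted level in the 2 perineal than in the 4 trunk tumors. The median of the log2 fold changes was 2.41 (−0.02 over all genes), and they ran from 5.41 ± 1.13 (SE) for Cnn1 and 4.58 ± 1.11 for Actg2 to 1.33 ± 0.77 for Myh11. The adjusted p ranged from 0.263 to 0.685 in edgeR, so that no member and 0% of the 16971 genes passed; 8 members had an unadjusted p under 0.05, beside 10.5% of all genes. This fit also holds tumor 36, on which the members were chosen, so its values and calls are a description and no support for a difference between sites. With DESeq2, 3.51% of all genes were called, and 4 members were: Cnn1 (adjusted p = 3.06e-05), Actg2 (0.000812), Des (0.00292) and Mylk (0.0234). Only Cnn1 and Oxtr were higher in both perineal tumors than in all 4 trunk tumors, as were 9.98% of all genes; for the other 8 members tumor 27 lay among the trunk tumors. Leaving out tumor 27, so that tumor 36 alone stood for the perineal site and was assumed to vary like the trunk tumors, edgeR called 3.20% of genes and 7 members, namely Acta2, Actg2, Tagln, Cnn1, Mylk, Des and Lmod1. The same holds for these calls. Leaving out tumor 36 instead, the median of the members was 0.15 and none was called, with Cnn1 at 0.79 and Oxtr, which is highest in tumor 27, at 2.30.

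**Figure D4:**
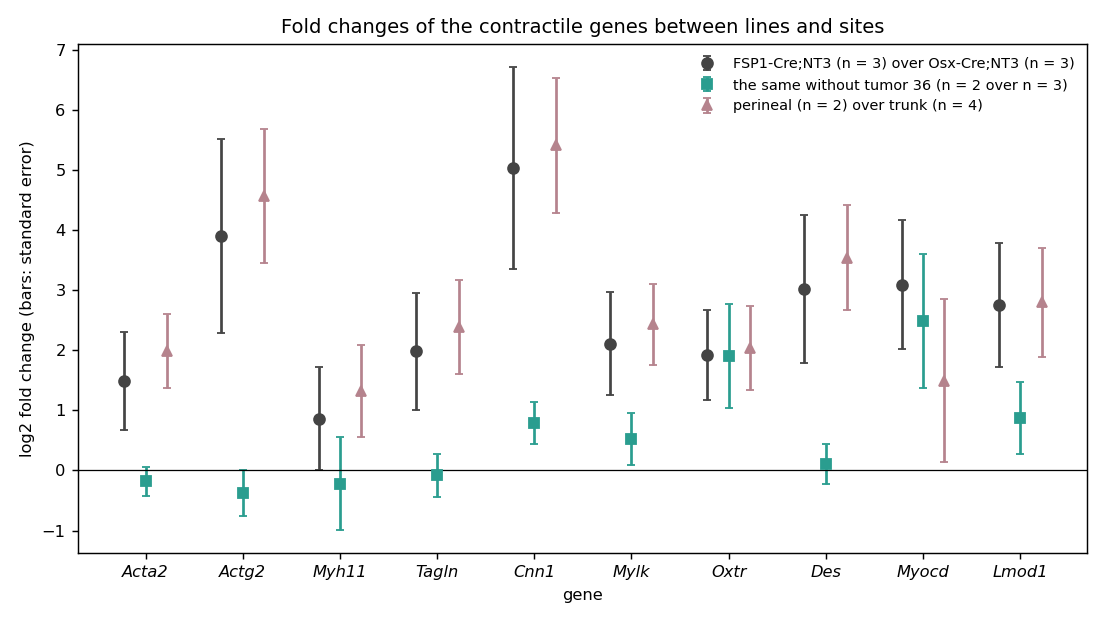
Log2 fold change of each contractile gene with its standard error in the 3 comparisons: FSP1-Cre;NT3 over Osx-Cre;NT3 (dark circles), the same without tumor 36 (green squares) and perineal over trunk (purple triangles). The values without tumor 36 lie near 0 for Acta2, Actg2, Myh11, Tagln and Des, and above 0 for Oxtr and Myocd with wide error bars.

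Other genes of smooth muscle were taken from a list of 20, of which 19 passed the filter. In 14 of the 19 tumor 36 was highest, in 6 it was at least 4-fold above the next tumor, and the median difference from the other 5 was 2.12 on the log2 scale. The 5 most abundant were Csrp1, Tpm1, Cald1, Tpm2 and Myl9. Of these, Myl9, the regulatory light chain of smooth muscle myosin, was at 256 CPM in tumor 36 and 24.9 to 40.8 CPM in the rest, and Tpm2, a tropomyosin, at 331 against 34.9 to 132 CPM. Csrp1 (652 against 575 to 731 CPM) and Cald1 (296 against 176 to 342 CPM), both made by many cell types, lay within the range of the other tumors. Besides Myl9, the genes past 4-fold included, named after their values were seen, Synpo2, Synm, Pgm5 and Pln; synemin (Synm), a partner of desmin, was at 95.7 CPM against 2.83 to 9.64 CPM. By contrast, of the 19 actin and myosin genes of all cells, 2 were highest in tumor 36, 0 passed 4-fold, and the median difference was 0.02. By edgeR, 0 genes of any list used here were called in the 3 fits. Of the other smooth muscle genes, 6 of 19 had an unadjusted p under 0.05 between the lines, beside 10.8% of all genes. Without tumor 36 this held for 3 of 19, beside 6.25%, and between the sites for 9 of 20, beside 10.5%. The fits by line and by site hold tumor 36, and the list was chosen with earlier results known, so these counts are a description.

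Of the 11 genes of the SRF axis, 7 were highest in tumor 36 and 1 passed 4-fold. Srf itself was at 70.6 CPM in tumor 36, within the 52.0 to 99.0 CPM of the others, and its actin-sensing partners Mrtfa and Mrtfb were at 46.4 and 48.8 CPM, also within range. The gene past 4-fold was Klf4, a factor of epithelial barrier that also acts in smooth muscle, at 233 CPM against 11.6 to 27.0 CPM. Of the 20 genes of contraction signalling, from receptors to calmodulin, 18 passed the filter, 14 of them were highest in tumor 36 and 0 passed 4-fold. The median difference was 0.88. The most abundant was Calm2, a calmodulin gene, at 564 CPM in tumor 36 against 377 to 927 CPM.

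Markers of other cell types were set beside the members in the same way. The 7 basal epithelial markers, which myoepithelial cells share, were not raised with them: none was highest in tumor 36, and their sum was 5974 CPM there against 9529 to 14717 CPM in Osx-Cre;NT3 tumors and 9860 to 13830 CPM in tumors 27 and 29. Krt5 (2591 against 3299 to 6087 CPM) and Krt14 (1637 against 2433 to 4105 CPM) were lowest in tumor 36. Luminal and milk markers moved with the members in part, as 5 of 9 tested were highest in tumor 36 and 3 passed 4-fold, namely Krt8 (2249 against 243 to 429 CPM), Krt19 (1091 against 11.8 to 43.4 CPM) and Cldn3 (397 against 1.35 to 5.98 CPM). The markers not highest in tumor 36 included Cldn4, which was lowest there (60.2 against 89.0 to 188 CPM). Krt18 was highest in tumor 18 (444 CPM, against 245 CPM in tumor 36), and Prlr lay within range (5.57 against 4.96 to 13.0 CPM). The sum of the list was 4784 CPM in tumor 36 against 1280 to 1566 CPM in Osx-Cre;NT3 and 792 to 793 CPM in tumors 27 and 29. Krt8 and Krt19 were its largest parts in tumor 36. The milk genes Csn3, Wap and Lalba were at or near 0 in all tumors, and Csn2, β-casein, was lowest in tumor 36 (56.6 against 82.3 to 347 CPM). All 6 adipocyte markers were highest in tumor 36, with a sum of 171 CPM against 3.02 to 17.0 CPM in Osx-Cre;NT3, 55.7 CPM in tumor 27 and 4.82 CPM in tumor 29. Pericyte markers (593 against 289 to 767 CPM, 2 of 10 highest), fibroblast markers (15304 against 6431 to 16290 CPM, 3 of 10) and endothelial markers (367 against 125 to 457 CPM, 1 of 6) had sums in tumor 36 within the range of the other tumors. What part adipose or luminal cells had in the levels of the members was not tested. Since Krt5 and Krt14 were at 1637 CPM or more in every tumor, a small share of myoepithelial cells could not be seen in them, and the cell type that carried the members was not tested.

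**Figure D5:**
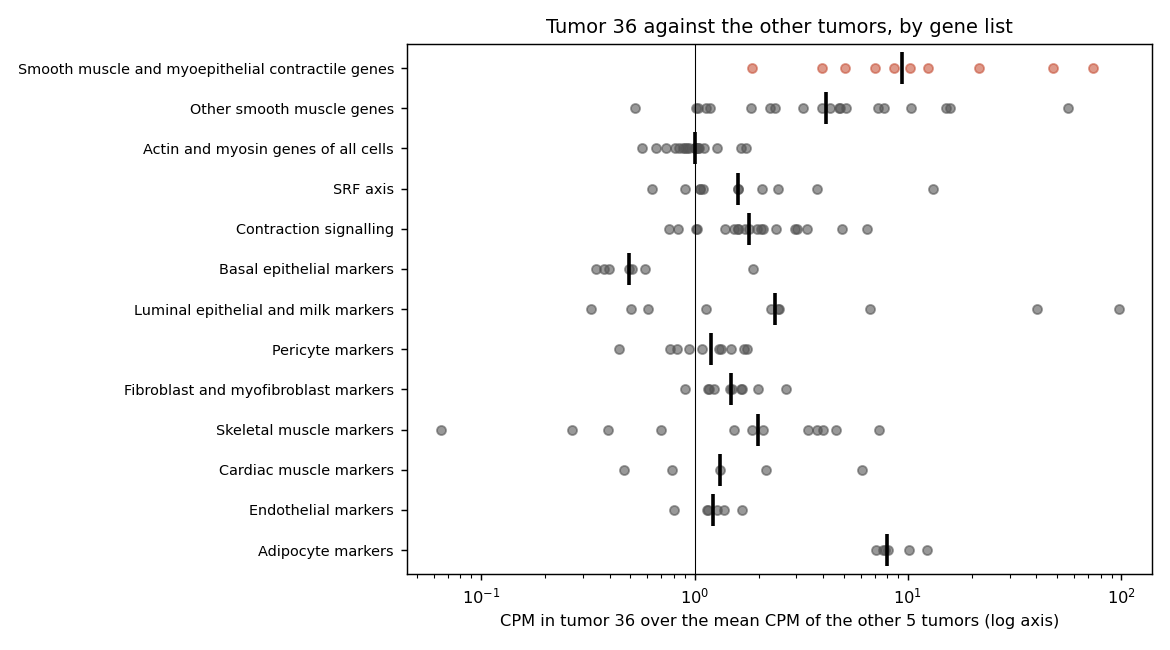
CPM in tumor 36 over the mean CPM of the other 5 tumors (log axis) for the genes of each list with both values at or above the floor of 3 counts (0.0579 CPM). This floor is lower than the filter on low counts, so some genes that were not tested are shown. Each point is 1 gene, the bar is the median and the contractile members are in red. The medians of the members and of the adipocyte markers lie furthest to the right, single luminal markers reach as far as the highest members, the actin and myosin genes of all cells centre on 1, and most basal epithelial markers lie below 1.

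The members themselves differed in how closely they followed their common profile over the 6 tumors, measured as the root mean square difference of centred log2 CPM. Mylk (0.28) and Lmod1 (0.41) were closest to it, and Cnn1 (1.04), Myocd (1.22) and Oxtr (1.27) farthest. Of 14154 other genes with a mean of at least 1 CPM, the 10 with the smallest difference were Osbpl6 (0.19), Myo1d (0.20), Krt6a (0.23), Scnn1a (0.23), Mtmr7 (0.24), Kcnk5 (0.25), Prosapip1 (0.26), Rdh1 (0.26), Cldn15 (0.28) and Osr1 (0.28). None of the 10 belongs to a list used here. Tumor 36 was 5.26-fold to 12.1-fold above the next tumor in these genes, and Krt6a, a keratin of stressed epidermis, went from 6.25 to 14.2 CPM in the other tumors to 155 CPM in tumor 36. With 6 tumors of which 1 is far above the others in these genes, such a likeness mainly records the step in tumor 36.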

How the data were processed

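RNA was sequenced from 6 whole tumors. The authors deposited 1 table with counts of reads per gene, not normalized, and RPKM (reads scaled to gene length and library size) for each tumor, on mm10. Their Methods name HISAT2 and featureCounts, whereas the submitters' processing notes list bcl2fastq, TopHat2 (2.0.6) and HTSeq, and neither gives the annotation or strand setting, so reads of similar or overlapping genes could be split in ways not known here. All deposited counts were even (0 odd values), for a reason not given in the sources used here; intervals and floors (3 counts) cover counting error only.

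Deposited counts were tested with edgeR (4.0.16, R 4.3.3) after filterByExpr and TMM, using the quasi-likelihood test with Benjamini-Hochberg adjustment over all genes tested and a threshold of 0.05. The SE of a log2 fold change was its size over the square root of F. Log2 CPM used a prior count of 2. The code was tested on simulated data. DESeq2 (1.42.0), other scalings and filters, covariates and left-out tumors were alternatives, with offsets adjusted for gene length added after the data were seen. Deposited RPKM served only to compare genes.

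The members and lists were chosen with earlier results of these data known. All 10 members are named; within a list the most abundant genes come first, and genes most like the members are the 10 nearest by root mean square difference. Each tumor is a separate animal. Of the members, 10 of 10 passed the filter. Promoters are from RefSeq (GRCm38.p6).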

Additional observations from a re-analysis of the deposited data

Results flagged for a closer look

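In 6 of the 10 contractile genes, the highest tumor, 36, lay further from the next one on the log2 CPM scale than the 95% limit of Dixon's test for 6 samples (0.625), as the gap divided by the whole range. The ratio was 0.823 for Acta2, 0.821 for Actg2, 0.818 for Cnn1, 0.816 for Des, 0.735 for Tagln and 0.654 for Mylk. For Myh11, Oxtr, Myocd and Lmod1 it stayed under the limit. There were 20 sets of values examined (each member in all 6 tumors and in the 4 trunk tumors), and 0 passed within the trunk tumors. By chance 1 of 20 would pass, but only for sets not chosen by their values, so this number is no measure for the sets of 6. The members were chosen with the level of tumor 36 known, so these ratios describe that choice.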

How the results depend on the processing

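No paired analysis was possible because each tumor is a separate animal and the labels define no pairs between the lines. Leaving single tumors out aside, 60 of 66 alternatives of the group results and 222 of 237 of the single genes were counted as unchanged. For a group result, a count of calls had to stay within 1.5-fold. A median had to move by less than the SD, within the groups, of the members' mean log2 CPM. A single gene in a fit had to keep its direction and side of the threshold. The step of a gene in tumor 36, which has no test, had to keep its direction and move by less than the SD of the other tumors. With DESeq2, 412 genes were called between the lines, 188 without tumor 36 and 596 between the sites, where edgeR called 0, and 4 members were called by site; the cause was not tested. The median of the members between the lines was 0.26 with site as covariate and 0.25 in trunk tumors alone. In these 2 settings the log2 fold change turned negative for Acta2 (−0.31 and −0.31), Actg2 (−0.57 and −0.57), Myh11 (−0.45 and −0.45) and Des (−0.012 and −0.019), since both settings leave the trunk tumors to set the value. With line as covariate, Myocd by site was −0.071. Without tumor 36, Tagln was 0.069 with library sizes alone and 0.11 with length-adjusted offsets.

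Leaving out each tumor in turn, the median of the members ran from 0.32 to 2.87 between the lines, the lowest without tumor 36, from 0.22 to 0.74 in the comparison without tumor 36, the highest without tumor 25, and from 0.15 to 3.23 by site. By site, 0 to 567 genes were called (2 without tumor 25, 567 without tumor 27) and 0 to 7 members. Between the lines, leaving out tumor 36 turned Acta2 (−0.18 to 1.91), Actg2 (−0.37 to 4.45), Myh11 (−0.22 to 1.84) and Tagln (−0.080 to 2.43) negative. In the comparison without tumor 36, Tagln ran from −0.38 to 0.29, Myh11 from −0.66 to 0.80 and Des from −0.071 to 0.41. By site, leaving out tumor 36 turned Actg2 (−0.078 to 5.53), Tagln (−0.37 to 3.24) and Myocd (−0.31 to 3.07) negative. The step of tumor 36 over the other 5 kept a median of 3.23 to 3.59. Depth limits Oxtr and Myocd, with 10 and 4 counts in their lowest tumors; as all deposited counts are even, these may exceed the number of fragments.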
